A study of Saccharomyces cerevisiae with 11 samples.

Results

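The open reading frames (ORFs) described here began at a near-cognate codon, meaning a codon that differs from AUG by a single base, and lay on transcripts that the rating table treated as having no annotated coding sequence (CDS). They were the candidates of class "new" whose codon was not AUG. Of 192230 candidate ORFs in the table, 8568 (4.46%) met this rule, under 221 gene names. The same names carried 1973 AUG candidates, giving 10541 ORFs of the class in all.

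The footprints came from budding yeast of strain SK1, whose cells sporulate rapidly and together. The 11 libraries fell into 11 groups of 1. A pair came from vegetative YEPD cultures at 30C, one in exponential growth at an OD600 of 0.6 and one saturated at an OD600 of 10. The other 9 came from cells in sporulation medium after growth in YEPD and BYTA. Of these, 8 were taken at 0, 1.5, 3, 4.5, 6, 8, 10 and 22 h, and the last was a MATa/a strain at 4.5 h. A MATa/a diploid lacks the alpha mating-type information that entry into meiosis needs. All cells received 3 micromolar lactimidomycin (LTM), which holds ribosomes at start codons while those already elongating run off. The rating table gives 1 value per ORF over the experiment, so no level per culture, time point or strain was analysed here.

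In the usual scanning mechanism of initiation, the small ribosomal subunit moves along the mRNA leader and stops where the initiator tRNA pairs with AUG. Near-cognate codons pair less well and are used less often. In yeast, UUG is among the near-cognate codons that initiate best in reporter genes, and AAG and AGG among those that initiate worst. A short ORF in the leader can take up scanning ribosomes before they reach the main start, while a start in the same frame as the protein adds residues to its amino terminus.

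An ORF is called rated here where its forest score, a value from 0 to 1 given by a random forest trained on footprint patterns, was above 0.5. By this rule 796 of 8568 members were rated, which is 9.29% with an exact (Clopper-Pearson) 95% interval of 8.68 to 9.92%. Over near-cognate candidates of all classes 8.57% were rated, and over all candidates 13.5%. Among the AUG candidates of the same class the share was 27.7%. Intervals cover counting error only: the ORFs are not replicates, and those on 1 transcript or with 1 stop codon share footprints. The 796 rated members ended at 731 stop codons, and 57 stop codons had 2 or more of them.

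Of the 10 rated members with the highest scores, 6 began at UUG or CUG codons in leaders. The sequences that follow show such starts, 12 bases to each side, with the start codon in capitals and the strand of the gene read 5′ to 3′. They are S288C sequence (RefSeq, R64) with S288C coordinates, found by the distance to the annotated start of the same gene; the SK1 genome sequence was not used here. SEC7 encodes an exchange factor for Arf GTPases at the Golgi, IRA2 a GTPase-activating protein of Ras, SAP190 a partner of the phosphatase Sit4, PFS1 a factor for spore formation and GIP1 a meiosis-specific subunit of the phosphatase Glc7.
SEC7 CUG, chrIV:802281-802307, minus strand: taatatcttaaaCTGtttctttctcat
IRA2 UUG, chrXV:170945-170971, plus strand: tagcatatagcaTTGtcctctgttatt
SAP190 UUG, chrXI:494145-494171, plus strand: tcatcttttgttTTGtttgttcattta
GAG1 UUG, chrXII:932901-932927, plus strand: acccgaataattTTGtacgatcagttt
PFS1 UUG, chrVIII:475390-475416, minus strand: ccaccttcctcgTTGaaatcttttcta
GIP1 UUG, chrII:330163-330189, minus strand: ttttcttcctccTTGcctattcgtttg

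The next set shows starts that lie in the frame of the protein (YBT1, an ABC transporter of the vacuole, and GRR1, an F-box protein of a ubiquitin ligase), starts that touch or abut an AUG (APM4, a subunit of the clathrin adaptor AP-2, and ARN2, a siderophore transporter), and a pair of neighbouring UUG codons (CIT1, the mitochondrial citrate synthase). In ARN2 the last base of the ATA is the first base of the annotated ATG. In APM4 an ATG that is not the annotated start stands directly before the GTG. Positions given for starts count from the first base of the annotated ATG as 0, with negative values in the leader.
YBT1 UUG, chrXII:46299-46325, minus strand: ctttcctagattTTGtactttttagaa
GRR1 UUG, chrX:594367-594393, minus strand: caataattatcaTTGgtagtgaggcta
APM4 GUG, chrXV:211988-212014, minus strand: catagagttatgGTGagcaatgattag
ARN2 AUA, chrVIII:10201-10227, minus strand: gggccaaaggaaATAtgatcgaagtcc
CIT1 UUG, chrXIV:631143-631169, minus strand: tacaaaccaggtTTGttttggctttta
CIT1 UUG, chrXIV:631138-631164, minus strand: accaggtttgttTTGgcttttatttgc

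The label of the class was checked against the SK1 annotation. All 221 gene names had an annotated CDS there, and in 221 of 221 its length was not a multiple of 3, with a remainder of 1 base in 78 and of 2 bases in 143. By comparison, 4796 of the 4804 genes that carry an ORF of class annotated had a CDS length that is a multiple of 3. The class therefore holds genes whose annotated CDS is out of frame in the SK1 annotation, and not transcripts outside genes. It does not hold all such genes: of 6707 annotated genes, 586 had a CDS length that is not a multiple of 3. What sets the 221 names apart from the others was not tested. Of the names, 150 were classified as Verified genes, 44 as Uncharacterized and 23 as Dubious, and 4 had no classification. Whether an out-of-frame CDS is the sequence of the strain or an error of its assembly was not tested.

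The 208 members listed under YLR256W-A, an entry with a CDS of 1 base, lay on HAP1, a heme-responsive transcription factor gene whose CDS had 4408 bases, and were placed on it, which leaves 220 host genes. Of 193 hosts with an undivided CDS in both strains, 91 were 1 base shorter in SK1 than in S288C, 14 were 1 base longer, 132 differed by at most 10 bases and 0 had the same length. The candidate starts of 131 hosts could be followed along the S288C gene with at least 90% of their codons matched. In 98 of them a change of register could be placed before a candidate start. Some of these, such as PTH2 and ASI3, had no candidate on the near side of the change. In those with candidates on both sides it fell at a median of 45.1% of the CDS (quartiles 22.0 and 78.3%). The window had a median of 133 bases and can hold further candidates.

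The AUG at the annotated start was a candidate in 136 hosts and was rated in 120 of them (88.2%). Its ORF was shorter than the S288C protein in 108 hosts, with a median of 56.5% of the protein's length (quartiles 26.4 and 85.8%). It was of the same length in 9 and longer in 15, though length alone does not show that the protein is intact. GAG1 was of the former kind with 228 codons, and SAP190 of the latter with 1034 codons against 1033 in S288C. SKN7, the gene of a stress response regulator, was also longer, with 632 codons against 622, yet its register changed between bases 1264 and 1811 of the CDS. In SEC7 the AUG ORF held 96 codons, 4.78% of the protein, and in IRA2 840 codons, 27.3%.

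**Figure D1:**
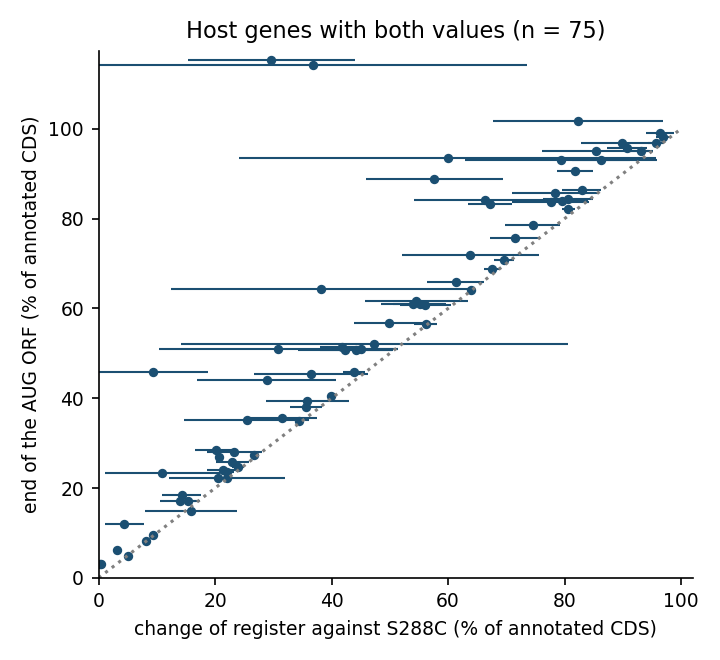
End of the ORF that begins at the annotated AUG (vertical axis, percent of the annotated CDS) against the place where the SK1 register departs from S288C (horizontal axis, percent of the annotated CDS), for the 75 host genes with both values. Points mark the middle and lines the whole window of the change, and the dotted line marks equality. In 75 of 75 genes the ORF ended after the lower edge of the window, by a median of 167 bases. This order was largely fixed in advance. Up to that edge the candidates follow the S288C register, in which the frame of the protein has no stop.

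Members were placed by their position on the host gene: in the leader before the annotated start, across that start, inside the CDS, across its end or downstream. Leaders held 1056 members, of which 246 were rated, 23.3% with an interval of 20.8 to 25.96%. The near-cognate upstream ORFs of genes with an annotated ORF, the class most like them, were rated in 19.4% of candidates. Leaders thus held 12.3% of the members and 30.9% of the rated ones. Of the AUG candidates of the class in leaders, 38.0% were rated (32.9 to 43.2%).

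Members inside the CDS were the majority, 6984 or 81.5% of all, and 488 of them were rated. Their share of 6.99% (6.40 to 7.61%) lay beside 7.45% for near-cognate internal ORFs of other genes and 1.38% for near-cognate truncations. The notes deposited with the table warn of very high false positive rates for calls within coding regions, where elongating ribosomes leave footprints. Inside calls, 61.3% of the rated members, fall under that warning.

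Across the annotated start, 38 of 222 members in another frame were rated, 17.1% (12.4 to 22.7%), beside 16.8% for near-cognate start-overlapping ORFs of other genes. In the frame of the protein, 10 of 84 were rated, 11.9% (5.86 to 20.8%), beside 3.64% for near-cognate extensions. The end of the CDS and the stretch beyond it gave 8 of 140 and 6 of 82.

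**Figure D2:**
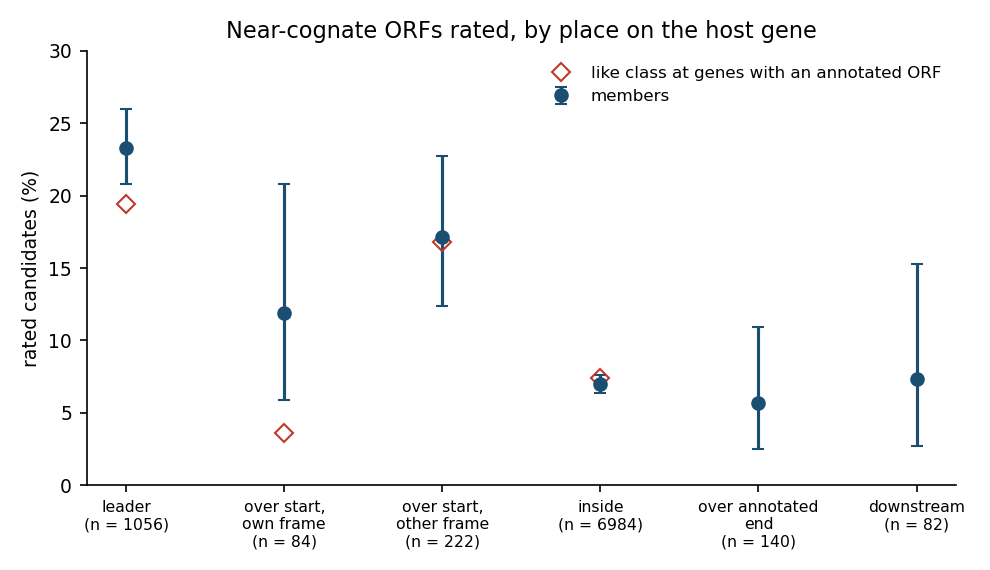
Percentage of members rated (filled points, vertical axis) by place on the host gene (horizontal axis, with the number of candidates), with exact 95% binomial intervals as bars; open diamonds give the like class at genes with an annotated ORF. The leader share of 23.3% is the highest, with an interval that overlaps those of starts across the annotated start, and the inside share of 6.99% lies close to its like class at 7.45%.

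The share rated in leaders was 24.3% in the 108 genes with a rated AUG start (20.98 to 27.8%) and 20.8% in the 11 genes whose AUG start was a candidate but not rated (10.8 to 34.1%, 11 of 53). It was 22.0% in the 66 genes whose annotated AUG is not a candidate in the table (17.8 to 26.6%). Over 971 leader members that overlap no other CDS the share was 24.3%, and over the 76 that lie across a CDS of the opposite strand it was 13.2% (6.49 to 22.9%).

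Start codons were ordered differently in leaders and inside. In leaders UUG led with 94 of 233 candidates rated, 40.3% (34.0 to 46.9%). CUG followed with 31.6% (21.6 to 43.1%), ACG with 26.7% (17.1 to 38.1%), GUG with 22.0% and AUU with 21.2%. AAG came last with 2 of 76, 2.63% (0.320 to 9.18%), and AGG had 3 of 39. The intervals of UUG, CUG and ACG overlap, while that of AAG lies below all 3. UUG made up 22.1% of the leader candidates and 38.2% of the rated ones. In upstream ORFs of other genes, UUG was rated in 33.1% and AAG in 4.07%.

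Inside the CDS, UUG gave 52 of 860, 6.05% (4.55 to 7.85%), which is below ACG with 9.88% (7.57 to 12.6%), AUC with 8.75% and AUA with 8.68%, though its interval overlaps theirs. AAG was again the lowest with 3.70% (2.68 to 4.97%). The fall of UUG from leaders to the inside was thus from 40.3 to 6.05%, with intervals far apart, while AAG had 2.63 and 3.70% with overlapping intervals. Over all places the difference between UUG (13.97%) and AAG (3.42%) was 10.55 percentage points. The start codon is not among the 6 features from which the forest score was made.

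**Figure D3:**
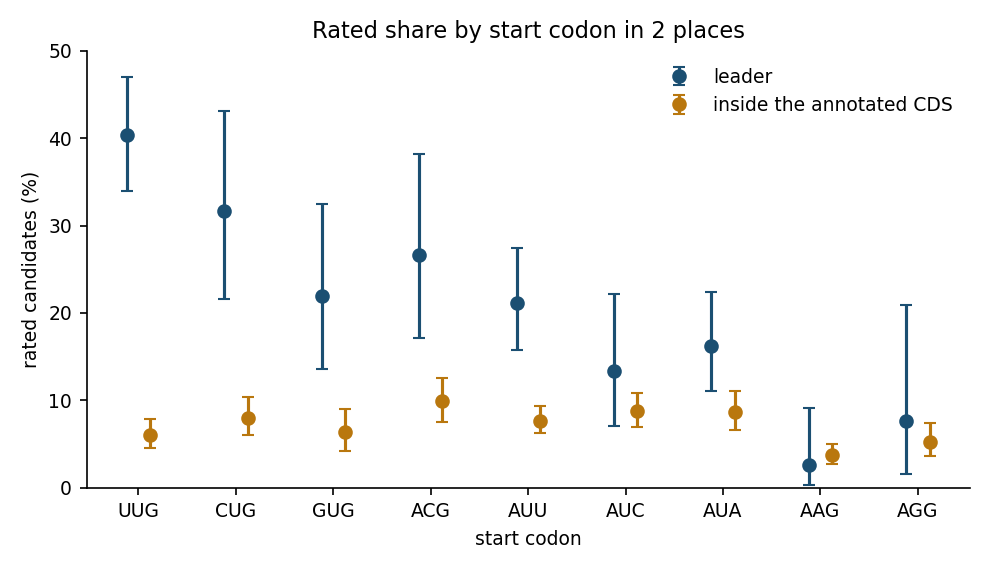
Percentage of candidates rated (vertical axis) for each of the 9 near-cognate start codons (horizontal axis) in leaders (blue) and inside the annotated CDS (orange), with exact 95% binomial intervals as bars. Leader values run from 40.3% for UUG to 2.63% for AAG, and inside values from 9.88% for ACG to 3.70% for AAG.

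Rated leader starts were nearer to the annotated start than the others. Their median distance was 119 bases (quartiles 73.25 and 185), against 190.5 bases for leader members that were not rated. By distance, 38.5% were rated at 1 to 50 bases, 42.2% from there to 100 bases, 27.6% up to 150 and 8.18% beyond 400. The table does not give transcript ends, so how many of the distant candidates lie on the mRNA was not tested. Rated leader ORFs were short, with a median of 10 codons against 14 for those not rated, and the same median of 10 codons held for rated upstream ORFs of other genes.

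**Figure D4:**
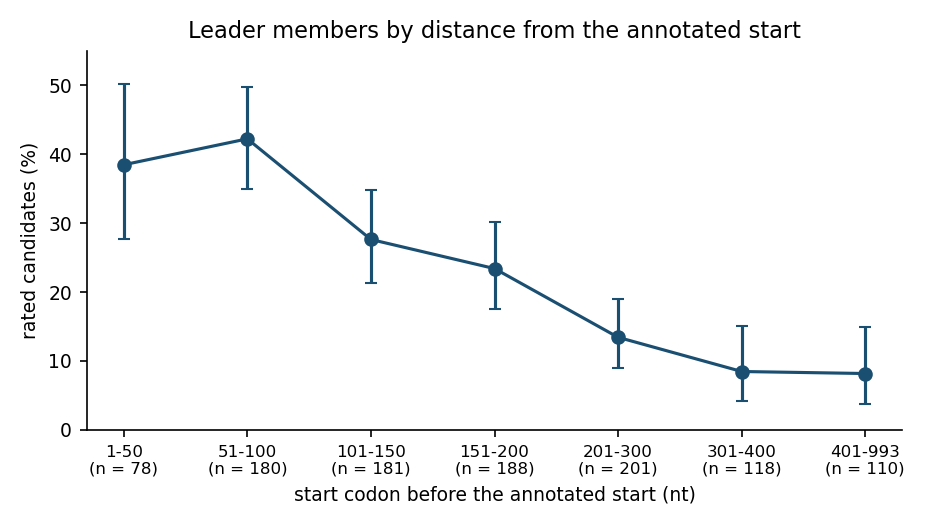
Percentage of leader members rated (vertical axis) by the distance of their start codon from the annotated start (horizontal axis, bases, with the number of candidates), with exact 95% binomial intervals as bars. The share is 38.5 and 42.2% in the nearest bins and 8.18% in the farthest.

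The base 3 positions before the start codon, where A favours initiation at AUG in yeast, differed little. In S288C sequence it was A in 75 of 183 rated leader starts, 41.0% (33.8 to 48.5%), and in 197 of 516 not rated, 38.2% (34.0 to 42.5%). The starts shown for SEC7, GAG1, YBT1 and APM4 have A there. Those of IRA2, SAP190, ARN2 and CIT1 have G, and those of PFS1, GIP1 and GRR1 have T.

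Rated leader ORFs occurred in 85 of the 185 genes with a leader member, and 16 genes with 5 or more held 112 of the 246. SAP190 had the most, 11 of 18 candidates. Its UUG at -100 from the annotated start began an ORF of 6 codons (SK1 chr11:499762-499782), with a score of 0.918. The LTM evidence at this codon was 44495.5, the highest of any rated member and 16.9 times that of the gene's AUG start. LTM evidence is the deposited strength of evidence for a start codon in the LTM data. Its scaling is not stated, so ratios of it compare evidence and not rates of initiation. The UUG 5 bases before that start, at -105, had LTM evidence of 884, and the other 9 rated leader starts of SAP190 lay between 1.82 and 485.

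SAP155, which encodes another partner of Sit4, had 4 rated leader starts. Its UUG at -143 (score 0.913) and its ACG at -127 (0.917) had LTM evidence of 15786.1 and 6511.18, while the AUG at the annotated start had 2.30 and a score of 0.0393. These 2 genes were compared after their values were seen.

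SEC7 and IRA2 had the highest scores among leader members, 0.957 and 0.952. The SEC7 start was a CUG at -73 with an ORF of 11 codons (SK1 chr4:816943-816978), and its LTM evidence was 2.05 times that of the AUG start. The IRA2 start was a UUG at -113, also with 11 codons (SK1 chr15:170198-170233), at 1.76 times the AUG. IRA2 had a further UUG at -94 that crosses the annotated start in another frame, with a score of 0.805 and 0.393 times the evidence of the AUG. GAG1 had a UUG at -54 with a score of 0.932, whose LTM evidence of 4016.9 stood against 52.4 at the AUG. ESL2 had a UUG at -129 with an ORF of 32 codons and a score of 0.931, at 0.114 times its AUG. MAL31, a maltose permease gene, had a UUG at -406 (score 0.924) with LTM evidence of 18938.9 against 57.7 at the AUG. MAL31 has near-identical copies at other MAL loci, so its footprints may be shared with them.

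Most rated leader members with an AUG start in the table had less LTM evidence than that AUG. In 58 such genes the median over 166 leader members was 0.0102 times the AUG, and 24 members of 13 genes exceeded it. Among 155 rated leader members in 55 genes with a rated AUG start, the median was 0.00744 times the AUG (quartiles 0.00173 and 0.0917), and 15 members of 10 genes exceeded it. Inside the CDS 18 of 283 members, in 10 genes, exceeded an AUG in the table. With a rated AUG the inside median was 0.00168 over 262 members, and 3 members of 2 genes exceeded it. LTM evidence is among the features of the score, so keeping rated AUG starts favours those with more evidence. PMA1, the plasma membrane proton pump gene, had 7 rated leader starts of 12, with scores of 0.540 to 0.831, and at most 0.0146 times the LTM evidence of its AUG. SCH9, which encodes a nutrient-sensing protein kinase, had 10 of 16. Its strongest was a UUG at -252 (44 codons, score 0.892) at 0.0466 times the AUG. NUP159, a nucleoporin gene, had 9 of 16, the strongest in LTM evidence being a CUG at -147 at 0.349 times the AUG.

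**Figure D5:**
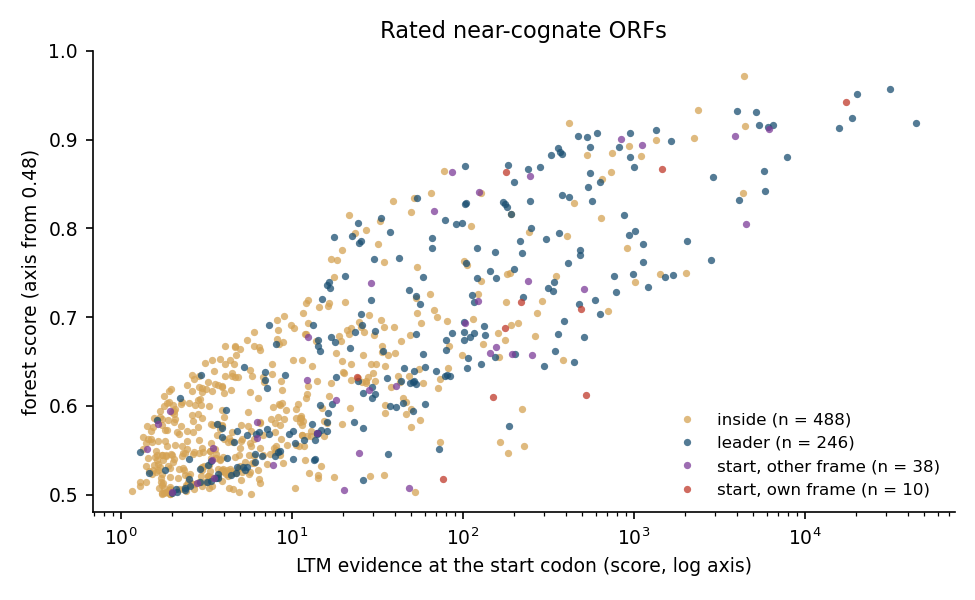
Forest score (vertical axis, beginning at 0.48) against LTM evidence (horizontal axis, log scale, a score without unit) for rated members, coloured by place; each point is 1 ORF. LTM evidence is among the features of the score, so their joint rise describes the score. The median evidence was 53.7 for 246 leader members and 5.55 for 488 inside members.

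The 10 rated starts in the frame of the protein would each add residues before the annotated AUG, and their ORFs run to the first stop after it. YBT1 had the highest score of them, 0.942. Its UUG lay 16 codons before the annotated start, with LTM evidence of 17383.5 and an ORF of 670 codons (SK1 chr12:47998-50010), against 1661 in the S288C protein. The annotated AUG of YBT1 was not a candidate in the table, so both starts could not be compared. The UUG of GRR1, 18 codons before its AUG, scored 0.866 with LTM evidence of 1456.1, while the AUG scored 0.468 with 87.3. In the other 6 genes with both starts in the table the near-cognate start had less evidence than the AUG. There the ratio was 0.683 for an AUA of SLF1, an RNA-binding protein gene, 0.236 for an AUA of YDR514C, 0.219 for an ACG of the histone deacetylase gene HOS3 and 0.190 for an AUA of the cell wall protein gene HSP150. It was 0.115 for an AUA of PDR10, an ABC transporter gene, and 0.00173 for an AUA of INP2, the peroxisome inheritance receptor gene. The PDR10 ORF, with 979 codons, was the longest rated member. The highest-scoring AUC member was also in INP2, at -95 in the leader with 5 codons (score 0.835), at 0.00387 times the AUG. An AGG 13 codons before the start of YAL065C, a gene related to the flocculins, had a score of 0.864, and a CUG 8 codons before that of ALG9, a mannosyltransferase gene, had 0.709.

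Inside the CDS the frame of the S288C protein could be assigned to 5134 members of 133 hosts. In that frame 14 of 898 were rated, 1.56% (0.855 to 2.60%), and in the other frames 310 of 4236, 7.32% (6.55 to 8.14%). Both lay near the classes they resemble, 1.38% for near-cognate truncations and 7.45% for internal ORFs. Before the change of register the shares were 1 of 216 in the protein's frame and 12.02% (10.4 to 13.8%) in the others. After it they were 1.96% (1.02 to 3.400%) and 5.59% (4.47 to 6.88%). Among 927 members that ran to the annotated end, 25 or 2.70% were rated. Members in the protein's frame often share a stop codon, and these intervals treat them as independent. An example in the frame was a CUG of NCS2, a tRNA thiolation gene, with 184 codons and a score of 0.892.

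Within 10 bases of the annotated start, starts were rated more often after it than before it, though the intervals overlap. At positions 1 to 10 after it 21 of 61 were rated, 34.4% (22.7 to 47.7%), beside 6.99% for all inside members. At positions -10 to -1 it was 11 of 66, 16.7% (8.62 to 27.9%), near the 16.8% of start-overlapping ORFs. Farther out the order did not hold. At 11 to 20 bases 7 of 52 were rated before the start (13.5%) and 8 of 53 after it (15.1%). At 21 to 50 bases it was 46 of 170 before (27.1%) and 15 of 130 after (11.5%). The annotated AUG lies within the span of 1 footprint from codons within 10 bases of it, and its part in their calls was not tested. The highest score of all members belonged to such a start, an AAG at position 5 of FLO11, a cell wall adhesin gene. It began an ORF of 14 codons, scored 0.971 and had 0.181 times the LTM evidence of the AUG. HSP150 had an AUA at the same position with a score of 0.884. The GUG of APM4 at -7 (score 0.904), the AUA of ARN2 at -2 (0.901), whose ORF has 1 codon, and the ACG of the ABC transporter gene YOR1 at 3 (0.883), which is the second codon of the CDS and begins an ORF of 513 codons, are further cases. The 32 rated starts within 10 bases all lay across the annotated start or inside the CDS, as did 126 of the 127 candidates there. A leader ORF has to end before the annotated start, so this was nearly fixed in advance.

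Farther inside, RNA14, which encodes a pre-mRNA cleavage factor, had an AUU at 212 with a score of 0.919 and 0.0368 times the LTM evidence of its AUG. CSS1 had an ACG at 2896 with a score of 0.933. Of the longest rated members, the AUC of RFX1, a repressor of DNA damage genes, began 714 codons with a score of 0.559, and the AUU of HPF1, a cell wall mannoprotein gene, began 652 codons with 0.517. Both lay inside the CDS.

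The 5 genes with the most rated members had more of them inside the CDS than in the leader. This is a count and not a share, and 81.5% of all members lay inside. In the leaders of these genes 0 of 1 candidates was rated in DOP1, 3 of 5 in ERC1, 9 of 16 in NUP159, 1 of 2 in NUM1 and 2 of 3 in POL3. DOP1, which acts in traffic between endosomes and Golgi, had 33 rated of 253 members, 32 of them inside, and its scores did not exceed 0.701. ERC1, a transporter gene, had 24 of 94, NUP159 22 of 100, NUM1, a cortical anchor of nuclear migration, 16 of 130, and POL3, the catalytic subunit of DNA polymerase delta, 15 of 81. Per gene name the median was 31 members and 2 rated ones, and 46 names had 0 rated members. The 10 names with the most held 176 of the 796.

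Of all 6707 annotated genes 3.28% had a member. Of 46 genes of mid and late sporulation, 4 had members (8.70%), with 17 rated of 193 (8.81%). Of 39 listed early meiosis genes only SPO22 had members (4 rated of 69), and of 138 ribosomal protein genes RPL11A and RPL16A (2 of 50). Of the 34 aminoacyl-tRNA synthetase genes on the list, 0 had members. The lists do not hold every gene of their kind. YDR341C, a host with 60 members and 0 rated, was not on the synthetase list. Over all hosts the share of members rated was 9.29%. In PFS1 the UUG at -64, with 6 codons, scored 0.917 and had 3.69 times the LTM evidence of the AUG. In GIP1 the UUG codons at -85 and -153 scored 0.907 and 0.774 with LTM evidence of 955 and 155. ADY2, an acetate transporter gene, had an AUA at -65 with 0.786, at 0.0104 times its AUG. SPO22, which acts in meiotic recombination, had a UUG at 39 with 0.828. OSW1, a spore wall gene, had a single rated member, an inside AUA with 0.696.

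Of 44 genes known to vary between strains, 5 had members (11.4%), with 29 rated of 619. They include HAP1, which carries a Ty insertion in S288C, with a UUG at -127 that scored 0.914, and ENA1, a sodium pump gene, with a UUG at -67 that crosses the annotated start and scored 0.912 at 0.581 times its AUG. TAO3, a morphogenesis gene, had a GUG at -82 with an ORF of 3 codons and 0.883, at 0.00985 times its AUG. ENA1 has near-identical neighbours in many strains, and its footprints may be shared. Of 68 listed mitochondrial protein genes only CIT1 had members (7 of 54). They included an AUU at -52 (0.884) and the neighbouring UUG codons at -91 (0.867) and -96 (0.812). This list is incomplete: the hosts HEM1 (34 members), RSM23 (26) and ATP22 (70), for example, were not on it. Of 60 listed nutrient transporter genes HXT4 and OPT2 had members (4 of 70). The highest was an AUA of the glucose transporter gene HXT4 at -16 with 0.819. Other transporter genes named here, such as YBT1, PDR10 and ADY2, were not on this list. Of 77 annotated genes of subtelomeric families 8 had members (10.4%), with 18 rated of 258, among them DDI3 with a leader UUG of score 0.858, a gene with a near-identical copy.

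Of the members, 94 scored above 0.8, 55 of them in leaders and 25 inside, and 24 scored above 0.9, 15 in leaders and 5 inside. Just above 0.5 stood starts of RER2 (0.500291), LIP2 (0.500485) and IOC2 (0.500608), and just below it starts of HAL5 (0.499469), FLO11 (0.499513) and ASI3 (0.499947), of which all but that of HAL5 lay inside the CDS.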

How the data were processed

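The submitters' processing notes name Bowtie2, CASAVA and bcl2fastq 2.17, with no settings. Per the notes deposited with the rating table, the authors made the forest score from 6 features of regressions on LTM footprints and on another data set, CHX, which they do not describe. The deposited LTM evidence is a score too, without stated scaling. The authors deposited a count of codons per ORF and a fraction that sets each ORF against the strongest one ending at its stop. Columns of single libraries number 0, so depth is unknown, the 11 conditions were not compared and no test was run.

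Members were placed by the deposited SK1 annotation, in coordinates counted from 1. Symbols and sequences came from S288C (RefSeq, R64), where starts were found by distance from the annotated start, with a single change of register allowed per gene. The step that finds this change was checked on S288C genes with 1 base removed or added by simulation. Larger differences in length, and other differences between the strains, were not part of that check. Python 3.11.15, pandas 2.3.3, numpy 2.4.6, scipy 1.17.1 and matplotlib 3.10.9 were used. Shares carry exact Clopper-Pearson intervals at 95%. Alternatives were other cut-offs, 1 candidate per stop codon, each gene once, at least 10 codons, and leaving out the 10 names with the most rated members.

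The members, the lists and the question were chosen with earlier results of these data known. The named members are the 10 highest scores, the highest of each of the 9 codons, the 5 longest, the 5 with most LTM evidence, the 5 genes with most rated members, up to 4 per gene list, and the 3 on each side of the cut-off. Also named, after their values were seen, were SAP155, SCH9, PMA1, NCS2, OSW1, SKN7, the second start of IRA2, the AUA starts of HSP150 and the starts in the frame of the protein. The placement on HAP1 was chosen after seeing the data.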

Additional observations from a re-analysis of the deposited data

How the results depend on the processing

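The count and the shares moved with the cut-off of the forest score. Above 0.1, 0.8 and 0.9 there were 7072, 94 and 24 members, or 82.54, 1.097 and 0.2801% of all. Leader shares at these cut-offs were 96.5, 5.208 and 1.42%, inside shares 81.46, 0.358 and 0.07159%, and the difference between UUG and AAG 5.315, 3.194 and 1.122 percentage points. With 1 candidate per stop codon, 731 of 4822 stop codons (15.16%) had a rated member, with 30.3% in leaders and 11.84% inside. With at least 10 codons 414 members were rated, or 7.459% over all, 18.33% in leaders and 5.504% inside. Counting each gene name once, 175 of 221 names (79.19%) had at least 1 rated member. Shares per stop codon and per name count a group with any rated member. They are therefore not rates of single candidates. Without the 10 gene names with the most rated members, an alternative chosen after seeing the data, the shares were 8.204% over all and 5.96% inside. Under each of the 6 alternatives that keep places apart, the leader share was above the inside share and the UUG share above the AAG share. No paired analysis was possible because each group has 1 library and the table gives no value per library. Depth per library is unknown and limits all values. Intervals cover counting error alone, and overlapping ORFs on 1 transcript are not independent. For starts inside the CDS, elongating ribosomes may add calls, as the deposited notes warn.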
